A study of Mus musculus with 7 samples.

Results

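The expression of 10 genes that mark or maintain hair follicle stem cells was followed in skin papillomas with and without transgenic *Nanog*. They were picked by name from the 23284 gene symbols of the RNA-seq files. The genes of the bulge, the stem cell niche of the lower permanent follicle, were *Cd34*, *Sox9*, *Lhx2*, *Krt15*, *Nfatc1*, *Tbx1*, *Fgf18* and *Foxc1*. The genes of the isthmus and junctional zone, just above the bulge, were *Lgr6* and *Lrig1*. They were chosen with their levels in both groups already known, so the differences between groups are given below as a description, with no test.

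CTR papillomas came from 4 different mice that carried a *Nanog* cassette under a doxycycline-responsive element at the collagen 1a1 locus (*Col1a1::tetO-Nanog*) and no transactivator. TG papillomas came from 3 different mice that carried the same cassette together with *K5-rtTA*, in which the bovine keratin 5 promoter drives the reverse tetracycline transactivator. This promoter restricts the induction to keratin 5 positive cells, mainly the basal layer of stratified epithelia and the outer root sheath of the follicle. All mice were C57Bl/6, began treatment at 8 to 10 weeks of age and had DOX at 2 mg/ml in their water throughout. Both groups received a single skin application of the mutagen DMBA and 15 weeks of the tumor promoter TPA, and were then observed for up to 15 weeks. Papillomas were taken at the end of that period or at the humane endpoint, and the age of each mouse at collection is not given in the sources used here. Each mouse gave a separate library, named here CTR 1 to CTR 4 and TG 1 to TG 3 and called a papilloma below. Whether a library held more than a single papilloma is not stated in the sources used here.

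Follicle stem cells rest for most of the hair cycle and are called on to rebuild the lower follicle at each new growth phase. FGF18 and BMP signals in the niche hold them at rest, and the transcription factors FOXC1 and NFATC1 act on the same side, whereas Wnt signals release them. SOX9, LHX2 and TBX1 sustain the identity or self-renewal of the bulge cells, and CD34 and keratin 15 are the surface and cytoskeletal markers by which these cells are usually isolated or traced in the mouse. Bulge and isthmus cells are among the cells from which DMBA/TPA tumors can arise. Most of these genes are also used elsewhere: CD34 is carried by endothelial cells, dermal fibroblasts, mast cells and blood progenitors, and *Foxc1*, *Tbx1* and *Nfatc1* are active in blood vessels, mesenchyme or muscle precursors.

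Values are FPKM, the fragments of a gene scaled to its transcript length and to the mapped fragments of the library, as the authors estimated them for each papilloma with Cufflinks. Read numbers on genes, implied by the width of the Cufflinks confidence intervals, lay between 10077008 and 15711400 per papilloma, with CTR 3 and TG 1 the deepest. *Nanog* itself was at 2.70, 2.84, 12.7 and 3.34 FPKM in CTR 1 to CTR 4 and at 36.9, 57.4 and 66.9 FPKM in TG 1 to TG 3, without overlap of the groups (exact permutation test over 35 splits, 2-sided p = 0.0286, the smallest this design allows). TG 3 stood apart from the other libraries: across the 12299 genes whose mean reached 0.5 FPKM, its Pearson correlations with the other papillomas on log2(FPKM + 0.5) were 0.903 to 0.937, against 0.945 to 0.977 for the 15 pairs without it. Summed FPKM of 10 skeletal muscle genes was 722 in TG 3 against 8.74 to 14.0 in the other 6 papillomas, and that of 10 fibroblast genes was 726 against 85.4 to 144. The basal keratinocyte genes of the labelled tissue were present in all 7 papillomas, *Krt5* at 942 to 1783 FPKM, *Krt14* at 4717 to 10937 FPKM and *Trp63* at 30.9 to 57.7 FPKM.

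The 10 genes covered a wide range of levels in CTR papillomas. *Cd34* was the most abundant, with a mean of 29.5 FPKM that exceeded 87.3% of the 12299 genes, followed by *Krt15* at 15.9 FPKM, which exceeded 76.8%. *Foxc1*, *Tbx1*, *Sox9* and *Lrig1* formed a middle group with CTR means of 4.80, 3.89, 3.45 and 2.97 FPKM. *Nfatc1* had a CTR mean of 1.17 FPKM. *Fgf18*, *Lgr6* and *Lhx2* were at the lower end, with CTR means of 0.186, 0.0691 and 0.0506 FPKM. In this order the CTR ranges of neighbors were separate only between *Krt15* and *Foxc1*, between *Lrig1* and *Nfatc1* and between *Nfatc1* and *Fgf18*, and all other neighbors overlapped. Even *Cd34* was above *Krt15* in only 3 of 4 CTR papillomas, since *Krt15* reached 28.1 FPKM in CTR 1. The 7 genes from *Cd34* to *Nfatc1* had a mean of at least 0.5 FPKM over all papillomas, whereas *Fgf18*, *Lgr6* and *Lhx2* did not and were left out of the fit across genes.

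**Figure D1:**
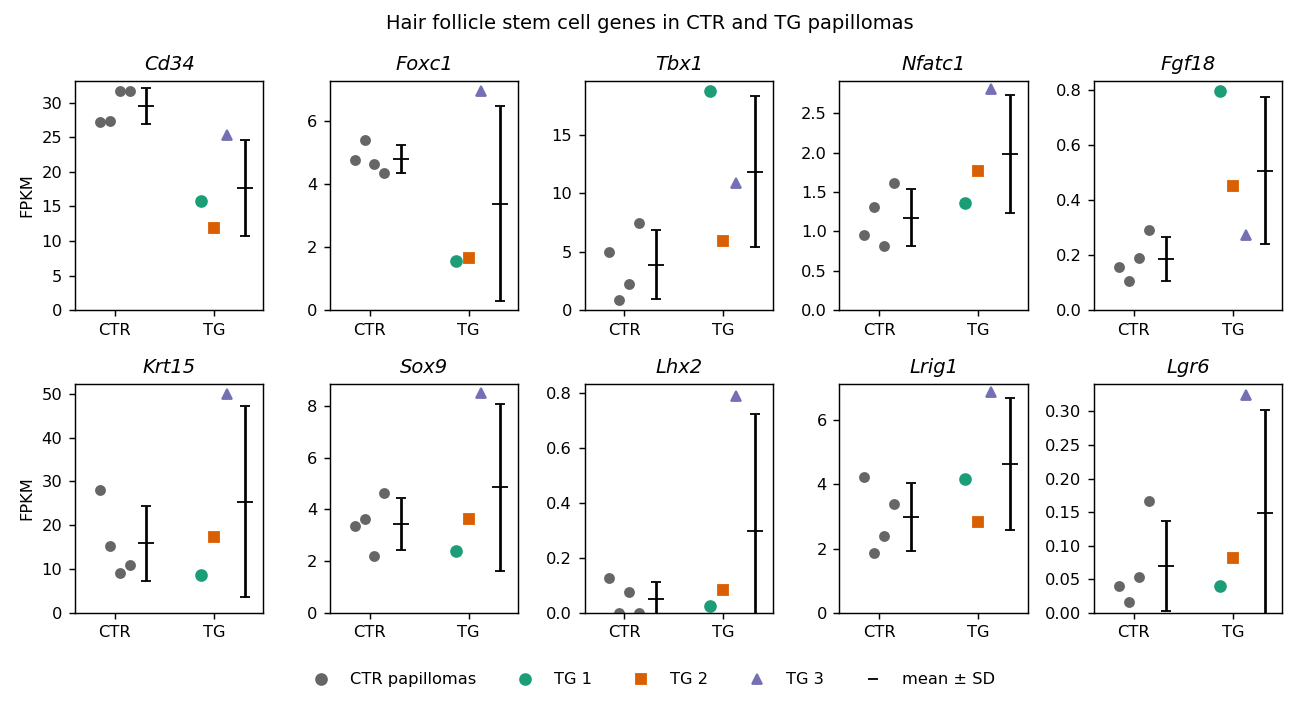
FPKM of each of the 10 genes (y axis, linear, a separate scale for each gene) in the 4 CTR and 3 TG papillomas (x axis). Points are single papillomas, with the TG papillomas told apart by color and shape, and the bars are group means ± SD, not drawn below 0. *Cd34* is below the CTR range in all 3 TG papillomas, *Foxc1* in TG 1 and TG 2, and 7 of the 10 genes have their highest value in TG 3.

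*Cd34* encodes a sialomucin of the cell surface that marks bulge cells in mouse skin. The gene lies on chromosome 1 from 194938821 to 194961292 (GRCm38, as are all coordinates given here). It was at 27.2, 27.4, 31.7 and 31.8 FPKM in CTR 1 to CTR 4, and at 15.8, 11.9 and 25.3 FPKM in TG 1 to TG 3. CTR papillomas lay close together, all TG papillomas were lower than the lowest of them, and TG 3 was nearer to the CTR range than to TG 1 or TG 2. Mean levels were 29.5 ± 2.57 FPKM (SD, n = 4) in CTR and 17.7 ± 6.91 FPKM (SD, n = 3) in TG papillomas, a difference of -0.79 on the log2(FPKM + 0.5) scale with a standard error of 0.27. *Cd34* was the 1 gene of the 10 whose groups did not overlap with TG lower, and 2.23% of the 12299 genes had that pattern. The contrast chose the gene, so nothing is read from this count. With TG 3 left out, the CTR mean was 2.13 times the mean of TG 1 and TG 2, and the difference was -1.08. At 557 to 2089 implied reads in each papilloma, counting error was small beside the distance of TG 1 and TG 2 from the CTR papillomas. The Cufflinks interval of TG 3, 23.8 to 26.9 FPKM, overlapped with that of CTR 1, 25.7 to 28.7 FPKM.

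*Foxc1* encodes a forkhead transcription factor that is induced in bulge cells when the follicle becomes active and returns them to rest. The gene lies on chromosome 13 from 31806646 to 31810635. It was at 4.77, 5.41, 4.64 and 4.37 FPKM in CTR 1 to CTR 4, and at 1.57, 1.64 and 6.94 FPKM in TG 1 to TG 3. CTR papillomas again differed little, TG 1 and TG 2 were far below them, and TG 3 was above them all. The means were 4.80 ± 0.442 FPKM (SD, n = 4) and 3.38 ± 3.08 FPKM (SD, n = 3), with a log2 difference of -0.72 and a standard error of 0.51. TG 3 alone held 68.4% of the summed FPKM of the 3 TG papillomas. Without it the CTR mean was 2.99 times the mean of TG 1 and TG 2, and the log2 difference was -1.33.

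*Cd34* and *Foxc1* were thus the 2 of the 10 genes with both TG 1 and TG 2 below every CTR papilloma, a pattern held by 8.97% of the 12299 genes, and the 2 with the smallest spread among CTR papillomas (a coefficient of variation of 8.70% and 9.21%, against 29.3% to 123% for the other 8). Their promoters are shown because these genes shared a direction in TG 1 and TG 2. The windows are the 250 bases before the RefSeq start (GRCm38.p6), at chr1:194938571-194938820 on the plus strand for *Cd34* and at chr13:31806396-31806645 on the plus strand for *Foxc1*. Capitals mark CCAAT and GGGCGG, on either strand, so that ATTGG and CCGCCC also count.
Cd34: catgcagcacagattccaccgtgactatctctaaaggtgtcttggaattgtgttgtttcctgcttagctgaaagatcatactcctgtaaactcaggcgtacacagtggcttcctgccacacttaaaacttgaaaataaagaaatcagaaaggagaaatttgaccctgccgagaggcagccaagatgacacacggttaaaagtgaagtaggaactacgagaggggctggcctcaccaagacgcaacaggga
Foxc1: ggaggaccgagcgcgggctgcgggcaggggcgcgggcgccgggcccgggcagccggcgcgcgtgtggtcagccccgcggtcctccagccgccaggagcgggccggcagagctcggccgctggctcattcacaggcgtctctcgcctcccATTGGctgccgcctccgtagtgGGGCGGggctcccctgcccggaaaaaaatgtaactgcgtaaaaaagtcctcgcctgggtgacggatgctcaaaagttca
The *Cd34* window had 46.4% G and C and held none of the letters searched. The *Foxc1* window had 70.8% G and C and held 1 CCAAT (on the minus strand) and 1 GGGCGG. RefSeq windows were found for 7 of the 10 genes, 9 windows in all, since some genes have more than 1 start. Of these windows, 6 held GGGCGG, those of *Fgf18*, *Foxc1*, *Lgr6*, *Lhx2*, *Lrig1* and *Tbx1*, and 2 held CCAAT, those of *Foxc1* and *Lrig1*. TATAAA, the letters of the TATA box, and TAATGG, letters that the homeodomain of NANOG can bind, were in 0 of the 9 windows. Over 32851 promoter windows of the same length, 32.7% held GGGCGG, 33.8% CCAAT, 12.4% TATAAA and 6.57% TAATGG. *Sox9*, *Krt15* and *Nfatc1* had no window in the table used.

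*Cd34* is carried by several cell types of a papilloma, and in whole tissue fewer cells of a type and less RNA per cell cannot be told apart. Its level was therefore set beside markers of other CD34 positive cells in the same papilloma. The endothelial gene *Pecam1*, an adhesion molecule of vessel walls, was at 2.52, 4.04, 2.51 and 4.23 FPKM in CTR 1 to CTR 4 and at 5.86, 4.30 and 9.64 FPKM in TG 1 to TG 3. *Pecam1* was thus higher in every TG papilloma than in any CTR papilloma, opposite to *Cd34* (log2 difference 0.86, standard error 0.29, adjusted p = 0.687 from limma). The ratio of *Cd34* to *Pecam1* was 10.8, 6.80, 12.7 and 7.51 in CTR 1 to CTR 4 and 2.69, 2.77 and 2.63 in TG 1 to TG 3. These 3 TG ratios lay within a narrow band and below every CTR ratio. With *Cd34* lower and *Pecam1* higher in every TG papilloma, that separation follows from the 2 levels and is no further observation. In TG 3, *Cd34* was at 0.858 times its CTR mean and *Pecam1* at 2.90 times, so the low ratio there came mainly from *Pecam1*.

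Relative to *Cdh5*, the cadherin of endothelial junctions, *Cd34* was at 11.9 to 25.3 in CTR papillomas and at 4.84, 6.98 and 4.01 in TG 1 to TG 3. Relative to *Pdgfra*, a growth factor receptor of fibroblasts, it was at 79.2 to 113 in CTR papillomas and at 28.0, 19.5 and 7.21 in TG 1 to TG 3. The ratios to *Cdh5* and *Pdgfra* were lower in every TG papilloma. For fibroblasts this depended on the gene chosen. *Pdgfra* itself was higher in every TG papilloma than in any CTR papilloma. With *Cd34* lower in each, the separation of that ratio also follows from the 2 levels and is no further observation. The fibroblast genes *Dcn* and *Lum* were instead below every CTR papilloma in TG 1, as *Cd34* was, and highest in TG 3. A low ratio in TG 1 therefore does not hold for every fibroblast gene. Over the whole list of 12 endothelial genes, summed FPKM was 14.3 to 22.8 in CTR papillomas and 36.4, 18.1 and 47.0 in TG 1 to TG 3, so TG 2 was within the CTR range where *Cd34* was lowest. Summed FPKM of 10 fibroblast genes was 85.4 to 144 in CTR papillomas and 114, 100 and 726 in TG 1 to TG 3, and that of 9 mast cell genes was 4.20 to 6.41 and 3.98, 8.48 and 23.0. The part of these cells in the *Cd34* values was not tested.

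**Figure D2:**
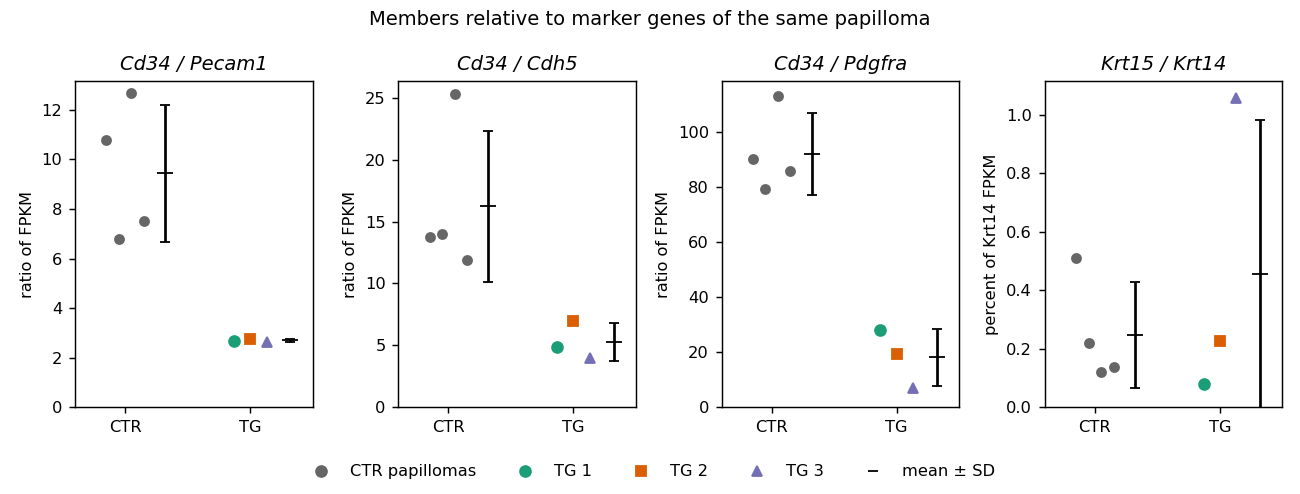
Ratios of FPKM within a papilloma (y axis, linear) in the 4 CTR and 3 TG papillomas (x axis) for *Cd34* over *Pecam1*, *Cd34* over *Cdh5*, *Cd34* over *Pdgfra* and *Krt15* as a percent of *Krt14*. Points are single papillomas and bars are means ± SD, not drawn below 0. The 3 *Cd34* ratios are below every CTR papilloma in all TG papillomas, with 2.63 to 2.77 in TG against 6.80 to 12.7 in CTR papillomas for *Pecam1*, while *Krt15* relative to *Krt14* is spread widely and highest in TG 3. For *Pecam1* and *Pdgfra* the separation follows from the levels of the genes themselves.

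*Tbx1*, *Nfatc1* and *Fgf18* were the genes with the most even shift toward higher values in TG papillomas, each being higher in TG in 11 of the 12 pairings of 1 TG with 1 CTR papilloma. *Tbx1* encodes a T-box transcription factor that supports self-renewal of bulge cells by damping BMP signaling, and lies on chromosome 16 from 18581713 to 18586969. It was at 4.96, 0.894, 2.26 and 7.46 FPKM in CTR 1 to CTR 4, and at 18.7, 5.91 and 10.8 FPKM in TG 1 to TG 3. The highest values were in TG 1 and TG 3, and TG 2 fell within the CTR range, below CTR 4. Mean levels were 3.89 ± 2.92 FPKM (SD, n = 4) in CTR and 11.8 ± 6.45 FPKM (SD, n = 3) in TG papillomas, with a log2 difference of 1.64 and a standard error of 0.76. This was the largest difference among the 10 genes and also came with a wide spread, the highest papilloma being at 20.9 times the lowest. The difference was 1.63 without TG 3, so that library did not carry it.

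*Nfatc1* encodes the calcium-regulated transcription factor that holds bulge cells at rest downstream of BMP, and lies on chromosome 18 from 80606205 to 80713071. It was at 0.952, 1.305, 0.819 and 1.62 FPKM in CTR 1 to CTR 4, and at 1.37, 1.77 and 2.81 FPKM in TG 1 to TG 3. TG 2 and TG 3 were above every CTR papilloma and TG 1 was within their range. The means were 1.17 ± 0.361 FPKM (SD, n = 4) and 1.98 ± 0.745 FPKM (SD, n = 3), with a log2 difference of 0.55 and a standard error of 0.27. Without TG 3 the difference was 0.32. *Nfatc1* and *Foxc1* act on the same side of the balance between rest and growth. In TG 1 and TG 2 they lay on opposite sides of their CTR means, although *Nfatc1* in TG 1 was within its CTR range.

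*Fgf18* encodes the secreted growth factor that bulge cells and their neighbors use to stay at rest, and lies on chromosome 11 from 33117431 to 33147400. It was at 0.156, 0.104, 0.191 and 0.292 FPKM in CTR 1 to CTR 4, and at 0.797, 0.449 and 0.274 FPKM in TG 1 to TG 3. These values rested on 3, 2, 5 and 5 implied reads in CTR papillomas and on 20, 8 and 5 in TG papillomas. TG 1 and TG 2 were above every CTR papilloma, and TG 3, the highest papilloma for most of the other genes, was within the CTR range. The exact 95% Poisson interval of the 20 reads of TG 1 was 12.2 to 30.9, apart from that of the 5 reads of CTR 3, 1.62 to 11.7, a library of nearly equal depth. In FPKM, the Cufflinks interval of TG 1, 0.441 to 1.15, overlapped with that of CTR 4, the highest CTR papilloma, 0.0308 to 0.552. The read interval of TG 2, 3.45 to 15.8, overlapped with those of all CTR papillomas. Intervals cover counting error only.

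The remaining 5 genes had their highest value in TG 3. *Krt15* encodes a type I keratin of basal cells that is strongest in the bulge, and lies on chromosome 11 from 100131759 to 100135949. It was at 28.1, 15.3, 9.12 and 11.0 FPKM in CTR 1 to CTR 4, and at 8.66, 17.3 and 50.0 FPKM in TG 1 to TG 3. TG 1 was the lowest papilloma of all, TG 2 was within the CTR range and TG 3 was above it. The means were 15.9 ± 8.58 FPKM (SD, n = 4) and 25.3 ± 21.8 FPKM (SD, n = 3), and the log2 difference of 0.43 (standard error 0.73) turned to -0.23 without TG 3. Type I keratins share long stretches of sequence, so short reads could be split among them and the *Krt15* values are uncertain to that extent.

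Relative to *Krt14*, the main keratin of all basal cells, *Krt15* was at 0.512%, 0.221%, 0.122% and 0.139% in CTR 1 to CTR 4 and at 0.0792%, 0.229% and 1.06% in TG 1 to TG 3. The 7 papillomas came in the same order as for the *Krt15* level itself, with TG 3 and CTR 1 highest and TG 1 lowest, and the groups overlapped on both measures.

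*Sox9* encodes an HMG-box transcription factor required to specify and maintain the bulge, and lies on chromosome 11 from 112782210 to 112787757. It was at 3.36, 3.62, 2.18 and 4.64 FPKM in CTR 1 to CTR 4, and at 2.39, 3.65 and 8.52 FPKM in TG 1 to TG 3. TG 1 and TG 2 lay within the CTR range and TG 3 was above it. The means were 3.45 ± 1.01 FPKM (SD, n = 4) and 4.85 ± 3.24 FPKM (SD, n = 3), and the log2 difference of 0.31 (standard error 0.47) turned to -0.15 without TG 3.

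*Lhx2* encodes a LIM-homeodomain factor that keeps bulge cells undifferentiated, and lies on chromosome 2 from 38351308 to 38369728. It was at 0.127, 0, 0.0757 and 0 FPKM in CTR 1 to CTR 4, and at 0.0259, 0.0826 and 0.789 FPKM in TG 1 to TG 3. The implied reads were 3, 0, 3 and 0 in CTR papillomas, where the exact 95% Poisson interval of a count of 0 reaches 3.69 reads, and 1, 2 and 19 in TG papillomas. *Lhx2* was therefore near the limit of detection in 6 of 7 papillomas, and TG 3 held 87.9% of the summed FPKM of the TG papillomas. The exact 95% Poisson interval of its 19 reads was 11.4 to 29.7, above the interval of any CTR papilloma, the highest of which ended at 8.77 reads. These intervals cover counting error only, not differences between mice, and the reads are not scaled to depth. The log2 difference of 0.42 was 0.014 without TG 3.

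*Lrig1* encodes a membrane protein that restrains ErbB receptors and marks stem cells of the junctional zone, and lies on chromosome 6 from 94604529 to 94700145. It was at 4.24, 1.85, 2.41 and 3.40 FPKM in CTR 1 to CTR 4, and at 4.17, 2.84 and 6.89 FPKM in TG 1 to TG 3. TG 1 and TG 2 lay within the CTR range, which ran from 1.85 to 4.24 FPKM by itself, and TG 3 was above it. The means were 2.97 ± 1.06 FPKM (SD, n = 4) and 4.63 ± 2.06 FPKM (SD, n = 3), and the log2 difference of 0.54 (standard error 0.38) was 0.24 without TG 3.

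*Lrig1* was also set against *Egfr*, the best known of the receptors it restrains. *Egfr* was at 8.86, 6.23, 8.03 and 9.40 FPKM in CTR 1 to CTR 4 and at 9.91, 11.8 and 17.8 FPKM in TG 1 to TG 3, higher in every TG papilloma (log2 difference 0.64, standard error 0.23, adjusted p = 0.687 from limma). The ratio of *Lrig1* to *Egfr* was 0.297 to 0.479 in CTR papillomas and 0.420, 0.241 and 0.386 in TG 1 to TG 3. TG 1 and TG 3 were within the CTR range and TG 2 was below it.

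*Lgr6* encodes an R-spondin receptor of isthmus cells, and lies on chromosome 1 from 134986353 to 135105276. It was at 0.0393, 0.0168, 0.0533 and 0.167 FPKM in CTR 1 to CTR 4, and at 0.0398, 0.0822 and 0.325 FPKM in TG 1 to TG 3. These levels corresponded to 2, 1, 4 and 8 implied reads in CTR and 3, 4 and 14 in TG papillomas. The exact 95% Poisson interval of the 14 reads of TG 3, 7.65 to 23.5, overlapped with that of the 8 reads of CTR 4, 3.45 to 15.8, so no difference was detectable between the highest papillomas of the groups at this depth. The log2 difference of 0.17 was -0.015 without TG 3.

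Counted over the 10 genes, 8 had a higher and 2 a lower TG mean on the log2 scale, against 60.0% higher and 40.0% lower among the 12299 genes. Without TG 3, 5 of the 10 had a higher TG mean. TG 3 was the highest papilloma for 7 of the 10 genes (5 of the 7 with a mean of at least 0.5 FPKM), where 41.1% of the 12299 genes were highest in TG 3. TG 3 was above every CTR papilloma for 8 genes, and TG 1 and TG 2 for 2 genes each, *Tbx1* and *Fgf18* in TG 1 and *Nfatc1* and *Fgf18* in TG 2. *Fgf18* was thus the 1 gene above every CTR papilloma in both TG 1 and TG 2, as 8.94% of the 12299 genes were. All 3 TG papillomas were above all CTR papillomas for 0 of the 10 genes, against 4.93% of the 12299 genes. These counts come from the contrast by which the genes were chosen, and nothing is read from them.

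The 3 TG papillomas therefore carried different profiles of these genes. In TG 1, *Tbx1* and *Fgf18* were high and *Cd34*, *Foxc1* and *Krt15* were below every CTR papilloma. In TG 2, *Fgf18* and *Nfatc1* were above and *Cd34* and *Foxc1* below every CTR papilloma. In TG 3, *Cd34* alone was below, *Fgf18* was within the CTR range and the other 8 were above. The median deviation of the 10 genes from the CTR mean on the log2 scale was -0.064 (TG 1), 0.098 (TG 2) and 1.07 (TG 3), against -0.032, -0.018 and 0.24 over the 12299 genes. The high values of TG 3 came with its high fibroblast and skeletal muscle genes, and the part of those tissues in them was not tested.

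**Figure D3:**
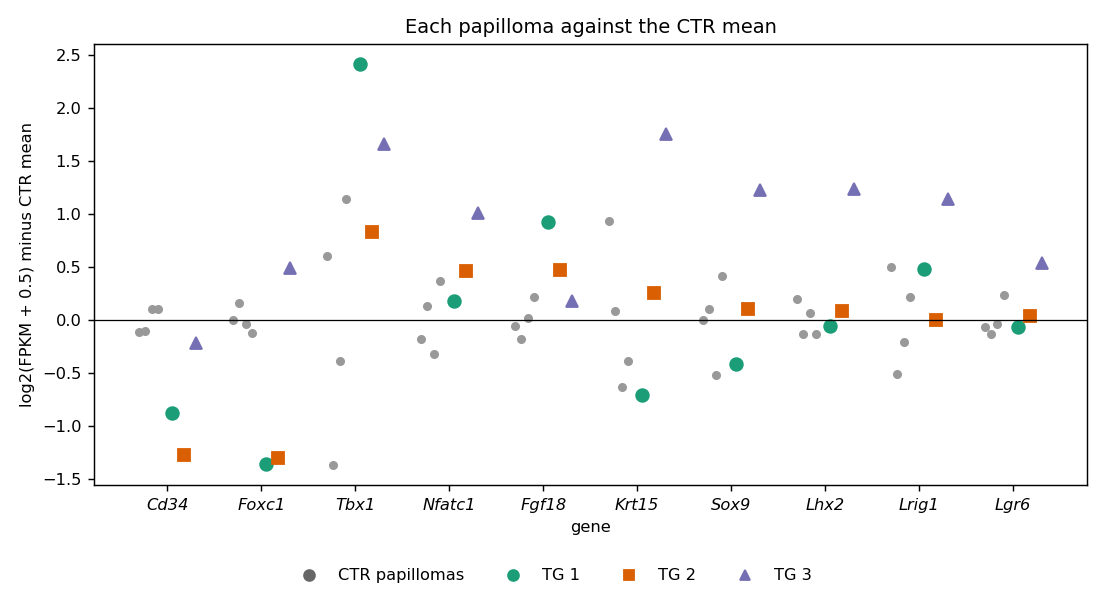
Deviation of each papilloma from the CTR mean on the log2(FPKM + 0.5) scale (y axis) for the 10 genes (x axis), with CTR papillomas in gray and each TG papilloma in its own color and shape. *Cd34* and *Foxc1* are low in TG 1 and TG 2, *Tbx1* is highest in TG 1, and TG 3 is highest for *Foxc1*, *Nfatc1*, *Krt15*, *Sox9*, *Lhx2*, *Lrig1* and *Lgr6*.

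Further genes of the follicle and of the signals around it were examined in lists that do not share a member with the 10 genes. Of 188 such genes found, 134 had a mean of at least 0.5 FPKM and 0 differed at an adjusted p under 0.05 (limma, the smallest adjusted p being 0.538 for *Ivl*), as was the case for 0 of the 12299 genes in each direction. At an unadjusted p under 0.05, 4.86% of the 12299 genes were higher and 1.96% lower in TG papillomas. Counts of higher and lower genes below are at that unadjusted threshold, and the median log2 difference over the 12299 genes was 0.061. Without TG 3 that median was -0.027, and of the 11990 genes tested then, 627 were higher and 522 lower. List counts without TG 3 are to be set beside these. The minimum of 0.5 FPKM was a mean over both groups. Genes such as *Hoxc13*, *Pdgfra* and *Lyve1*, with CTR means of 0.267, 0.324 and 0.488 FPKM, reached it only through TG papillomas.

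Among 17 tested genes of other follicle stem and progenitor compartments, 2 were higher and 1 was lower, with a median difference of -0.019. Without TG 3, 0 of 17 were higher and 4 lower, among them *Id2* and *Runx1*. The higher ones were *Dkk3*, a secreted Dickkopf family protein enriched in the bulge, at 3.19 to 5.32 FPKM in CTR and 6.22, 4.92 and 10.7 FPKM in TG 1 to TG 3, and *Cdh3*, the P-cadherin of basal and matrix cells, at 19.9 to 34.3 FPKM and 33.7, 41.2 and 55.5 FPKM. The lower one was *Id2*, a target of BMP signaling, at 9.91 to 25.7 FPKM in CTR and 6.13, 8.90 and 9.12 FPKM in TG papillomas. *Runx1*, a transcription factor that helps follicle stem cells to activate, was at 8.60 to 11.8 FPKM in CTR papillomas and at 3.77, 6.35 and 16.9 FPKM in TG 1 to TG 3, the same order relative to the CTR range as *Foxc1*. *Lgr5*, the receptor that marks the lower bulge and hair germ, had 0.252, 0, 0.0197 and 0.0144 FPKM in CTR 1 to CTR 4 and 0.0297, 0.0286 and 1.74 FPKM in TG 1 to TG 3. *Krt19*, a keratin of the bulge, had 0.381 to 1.60 FPKM in CTR and 0.568, 0.718 and 9.72 FPKM in TG 1 to TG 3. Both were thus high in TG 3 alone, as *Lhx2*, *Sox9* and *Krt15* were, and 10 of the 17 genes were highest in TG 3.

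In the list of FGF18 and BMP signals, receptors and targets, 0 of 16 tested genes were higher and 2 were lower, *Id1* and again *Id2*, with a median difference of -0.07. Without TG 3, *Id2* and *Bmp6* were lower and *Fgfr3* was higher, with a median of -0.16. *Id1*, another BMP target, was at 82.8 to 120 FPKM in CTR papillomas and at 82.2, 73.7 and 59.6 FPKM in TG 1 to TG 3. The ligands *Bmp4* and *Bmp6* were at 0.203 to 0.594 and 0.967 to 1.76 FPKM in CTR papillomas, and at 0.637, 0.389 and 0.777 and at 0.922, 0.633 and 2.69 FPKM in TG 1 to TG 3, with overlapping groups for both. Of the receptors that can bind FGF18, *Fgfr3* showed the widest split, with 7.61 to 9.34 FPKM in CTR papillomas and 19.9, 18.5 and 5.67 FPKM in TG 1 to TG 3. *Fgfr3* was therefore high in the same 2 papillomas as *Fgf18*, and lowest in TG 3 (log2 difference 0.59, standard error 0.38, adjusted p = 0.839 from limma). *Fgfr1* was at 3.61 to 6.997 FPKM in CTR and 2.81, 4.68 and 10.03 FPKM in TG papillomas, and *Fgfr2* at 8.51 to 11.96 and 6.95, 10.7 and 6.96 FPKM.

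Among R-spondins, Lgr receptors and Wnt feedback genes, 0 of 6 tested genes were higher or lower, with a median difference of 0.14 (0.028 without TG 3). *Lgr4*, the widely expressed relative of *Lgr6*, was at 1.51 to 2.42 FPKM in CTR papillomas and at 1.13, 2.37 and 3.89 FPKM in TG 1 to TG 3. The ligand genes were nearly silent: *Rspo1* was at 0.0341 to 0.166 FPKM in CTR and 0.0441, 0.241 and 0.549 FPKM in TG papillomas, and *Rspo3* was listed at 0 in every papilloma but TG 3, where it was at 0.121 FPKM. *Lgr4*, *Lgr5*, *Lgr6*, *Rspo1* and *Rspo3* had their highest value in TG 3, whereas *Rspo4*, a ligand named after its values were seen, was highest in TG 2, at 0.236 FPKM against 0.0580 FPKM in TG 3.

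In the list of Lrig genes and receptor tyrosine kinases, 1 of 6 tested genes was higher, *Egfr*, and 0 were lower, with a median difference of 0.31. Without TG 3, 0 were higher or lower and the median was 0.14. The relatives of *Lrig1* did not share its pattern in full. *Lrig2* was at 1.62 to 2.24 FPKM in CTR and at 1.83, 2.32 and 2.70 FPKM in TG 1 to TG 3, and *Lrig3* at 2.85 to 4.77 FPKM and 2.23, 4.88 and 4.56 FPKM, so that *Lrig3* was lowest in TG 1, where *Lrig1* was near its CTR maximum.

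Markers of the lineages that follicle stem cells give rise to were examined next. Of 23 hair matrix, root sheath and shaft genes found, 9 were tested, of which 1 was higher, the hair shaft regulator *Hoxc13*, and 0 lower, with a median difference of 0.84, and 17 of the 23 were highest in TG 3. *Hoxc13*, *Krt25*, *Krt27* and *Krt71*, with CTR means of 0.267, 0.0199, 0.157 and 0.0420 FPKM, reached the minimum of 0.5 FPKM only through TG papillomas. The count and median of this list rest in part on them, and nothing is read from either. Without TG 3, 5 were tested, and *Hoxc13* was not among them. The gene that passed was *Gata3*, a factor of the inner root sheath, and the median was 0.15. Of 7 tested sebaceous genes, 1 was higher, the desaturase *Scd1*, and 1 lower, the nuclear receptor *Pparg* (median 0.13). *Scd1* was at 3.11 to 8.05 FPKM in CTR papillomas and at 8.07, 8.43 and 41.6 FPKM in TG 1 to TG 3, and *Pparg* at 3.51 to 9.09 FPKM and 2.25, 1.26 and 3.66 FPKM. Without TG 3, *Pparg* was still lower, *Scd1* no longer passed and the median was -0.078. All 10 basal keratinocyte genes had a higher TG mean, 4 of them at the unadjusted threshold, with a median difference of 0.34, a shift in the same direction as that of most of the 10 follicle genes. Without TG 3, 0 of the 10 passed that threshold and 7 had a higher TG mean. Of 10 suprabasal genes, 1 was higher, *Ivl*, the cornified envelope protein involucrin, at 17.7 to 26.8 FPKM in CTR and 159, 108 and 36.3 FPKM in TG papillomas (median difference of the list 0.048). Without TG 3, 4 of the 10 were higher (*Dsg1a*, *Ivl*, *Krt1* and *Krt10*) and the median was 0.30. *Krt1*, a keratin of suprabasal cells, was at 187 to 807 FPKM in CTR papillomas and at 1517, 3309 and 133 FPKM in TG 1 to TG 3. Its partner *Krt10*, named after its values were seen, was at 917 to 1440 FPKM and 3150, 3133 and 181 FPKM, so both were lowest in TG 3. When each gene was taken relative to the mean of the basal keratinocyte genes in its papilloma, the number of the 10 follicle genes with a higher TG mean was 4 in place of 8 (*Tbx1*, *Nfatc1*, *Fgf18* and *Lrig1*), and the median difference of the 12299 genes was -0.41 in place of 0.061. On that scale *Tbx1* was at 1.16, *Cd34* at -1.26 and *Foxc1* at -1.19.

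Markers of other cell types were taken over their whole lists. Of 9 tested endothelial genes 4 were higher (1 without TG 3) and of 2 tested lymphatic genes 2 were higher (1 without TG 3), with median differences of 0.62 and 1.02. Summed FPKM of 7 lymphatic genes was 2.06 to 3.54 in CTR and 4.02, 7.78 and 11.2 in TG 1 to TG 3. Of 10 fibroblast genes 2 were higher, *Thy1* and *Pdgfra*, with a median difference of 0.87, and 9 were highest in TG 3. Without TG 3, 8 were tested, of which 0 were higher, and the median was -0.015. *Pdgfra*, with a CTR mean of 0.324 FPKM, reached the minimum only through TG 3 and was not tested without it. Of 9 tested skeletal muscle genes 0 passed the unadjusted threshold and 9 were highest in TG 3 (median difference 2.28, or -0.34 over the 2 genes tested without TG 3), *Acta1*, the skeletal alpha-actin, reaching 251 FPKM there against 0.162 to 1.41 FPKM in the other 6 papillomas. Summed FPKM of 6 myeloid genes was 30.3 to 42.7 in CTR and 29.9, 31.95 and 139 in TG 1 to TG 3, with 1 of 6 tested genes higher (0 without TG 3) and a median difference of 0.84 (0.10 without TG 3). TG 3 was thus highest for vessels, stroma, muscle and myeloid cells alike. The sums for 8 T cell genes, 4.23 to 6.50 in CTR and 4.90, 5.22 and 5.85 in TG papillomas, did not set TG 3 apart (0 of 2 tested genes higher or lower, median difference 0.09). Of 5 tested mast cell genes 1 was higher (0 without TG 3), with a median of 0.45 (0.068 without TG 3). Of 2 tested adipocyte genes 0 passed (median 0.78, or -0.26 for the 1 gene tested without TG 3). Their sum, 1374 to 3228 in CTR and 1545, 2269 and 1715 in TG 1 to TG 3, was nearly all *Fabp4*, and the other 7 of the 8 genes found were highest in TG 3, among them the adipokine *Cfd*, at 0 to 0.0484 FPKM in the other 6 papillomas and 25.97 FPKM in TG 3. *Kit*, the receptor of mast cells and melanocytes, was at 0.210 to 0.359 FPKM in CTR and 0.269, 0.485 and 0.623 FPKM in TG 1 to TG 3. All 9 proliferation genes had a lower TG mean, with a median of -0.30 (-0.46 without TG 3), but 0 passed the unadjusted threshold.

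**Figure D4:**
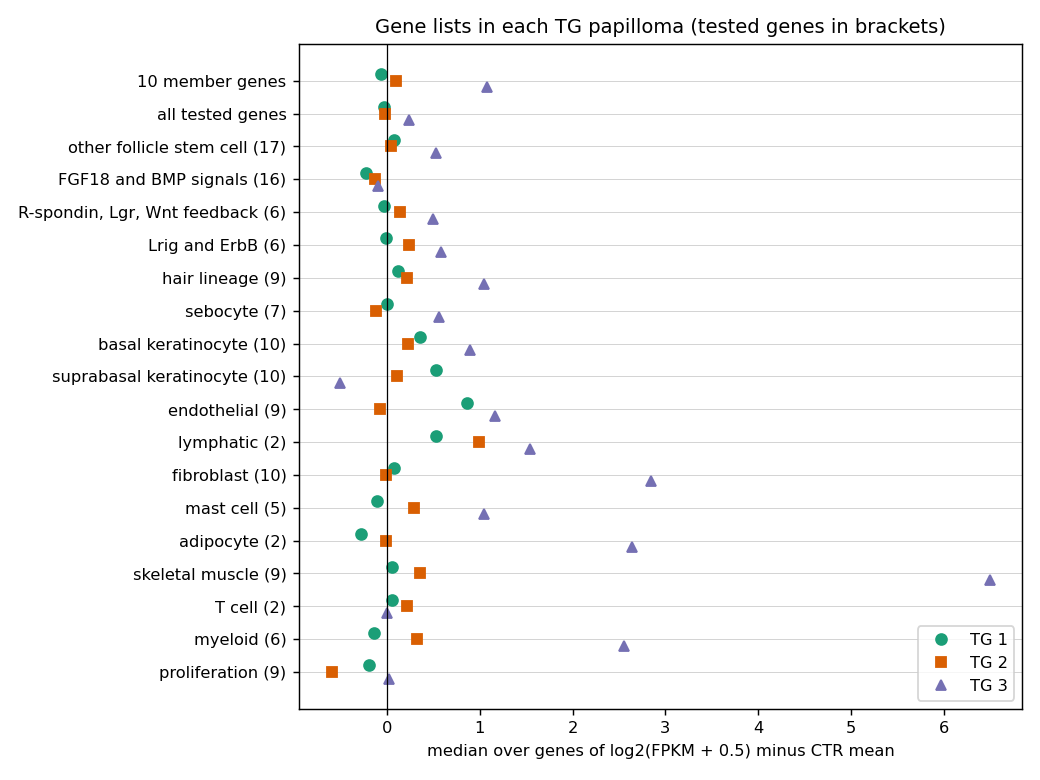
Median deviation from the CTR mean on the log2(FPKM + 0.5) scale (x axis) in each TG papilloma for the 10 follicle stem cell genes, all 12299 tested genes and 17 further lists (y axis, number of tested genes in brackets). TG 1 and TG 2 stay within 1 unit of the CTR mean in every list, whereas TG 3 is at 1.07 for the 10 genes, 2.85 for fibroblast genes and 6.49 for skeletal muscle genes.

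The difference was recomputed under 19 alternative settings. Of these, 5 cannot move it (no filter, a filter at 2 FPKM, limma without a trend, values of every status and the highest entry of a symbol), and the replicate block gives the same differences as leaving out CTR 4, which leaves 13 distinct settings. Over these, *Cd34* ranged from -1.26 to -0.55, *Foxc1* from -1.33 to -0.40 and *Tbx1* from 0.76 to 2.04. *Nfatc1* ranged from 0.078 to 0.74, *Fgf18* from 0.054 to 1.03 and *Lrig1* from 0.064 to 0.81, so these 3 kept their sign but came close to 0 relative to basal keratinocyte genes, where the distance from 0 was within their standard errors. *Sox9* and *Krt15* turned in 2 settings, without TG 3 and relative to basal keratinocyte genes. *Lhx2* turned relative to basal keratinocyte genes, and *Lgr6* turned in these 2 settings and with sample quality weights.

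**Figure D5:**
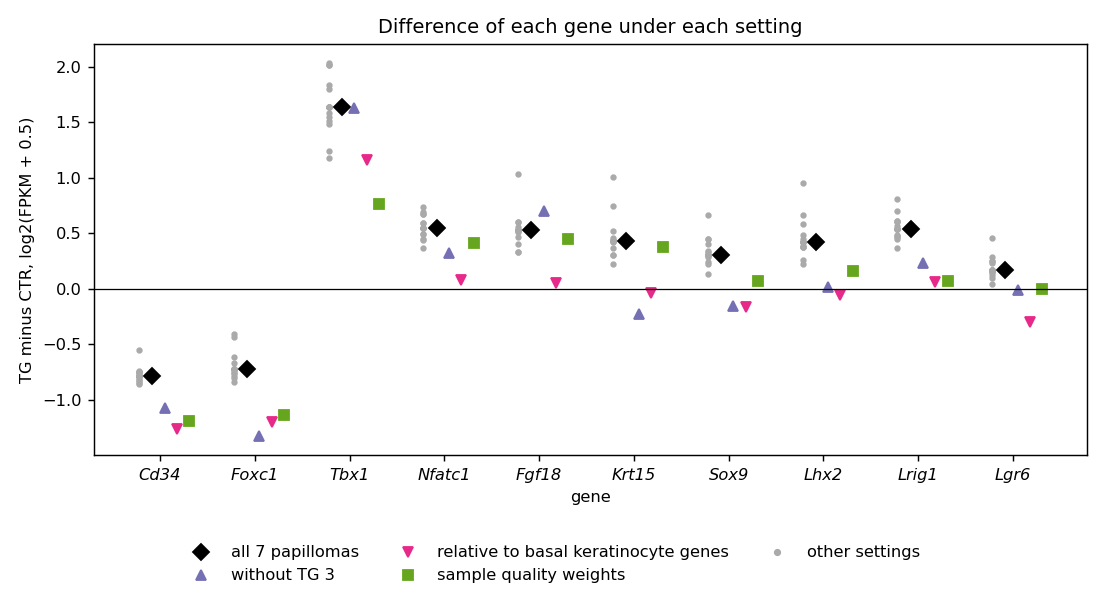
Difference of TG and CTR means on the log2(FPKM + 0.5) scale (y axis) for the 10 genes (x axis) with all 7 papillomas (diamonds), without TG 3, relative to basal keratinocyte genes, with sample quality weights and under the other settings (gray). *Cd34* and *Foxc1* are below 0 and *Tbx1* is above 0 in every setting, and *Krt15* moves from 0.43 to -0.23 without TG 3.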

How the data were processed

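PolyA+ RNA of 1 papilloma from each of 4 CTR and 3 TG mice was sequenced from stranded libraries as single reads of 40 bases. Alignment by the authors was to GRCm38/mm10 with TopHat2 2.0.4, Bowtie 0.12.7 and SAMtools 0.1.16, letting a read match several places, and estimated FPKM per gene and papilloma with Cufflinks 1.3.0. They deposited FPKM with a confidence interval and a status, which was OK for all 10 genes in all papillomas. FPKM divides by transcript length and library size, and no scaling between papillomas followed. Groups and replicate numbers came from the sample labels.

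The files, of 23746 entries each, were joined by symbol and locus. Symbols at more than 1 locus (240) were summed, and 162 symbols with a failed estimate were left out, leaving 23122. Read numbers were derived from the Cufflinks interval, whose width depends on them. Of 29 values of the 10 genes between 0 and 100 reads, 27 came out within 0.1 of a whole number. All intervals cover counting error only. The 12299 genes whose mean reached 0.5 FPKM were fitted on log2(FPKM + 0.5) with limma 3.58.1 (R 4.3.3), with a variance trend and Benjamini-Hochberg adjustment over all of them, and p-values are 2-sided. On this scale the change of low genes is understated. The standard errors of the 10 genes are those of a plain linear fit. The fit was tested on simulated data. Python 3.11.15, numpy 2.4.6, pandas 2.3.3, scipy 1.17.1 and matplotlib 3.10.9 were used for the rest. Promoter windows came from RefSeq (GRCm38.p6).

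The 10 genes and all gene lists were chosen with earlier results of these data known. The named genes were the 10 genes, *Nanog*, members of each further list with the smallest unadjusted p (at most 3 per list and direction), and a set fixed by name (*Bmp4*, *Bmp6*, *Fgfr1*, *Fgfr2*, *Fgfr3*, *Lgr4*, *Lgr5*, *Rspo1*, *Rspo3*, *Lrig2*, *Lrig3*, *Egfr*, *Krt5*, *Krt14*, *Trp63*, *Pecam1*, *Cdh5*, *Pdgfra*, *Kit*, *Krt19*). Not every gene that the rule allowed is given. Alternatives tried were quantile normalization, upper-quartile scaling, a pseudocount of 0.1 or 1, a filter at 2 FPKM or none, sample quality weights, limma without a trend, a replicate block, values of every status, the highest entry of a symbol, each papilloma left out in turn, and differences relative to basal keratinocyte genes.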

Additional observations from a re-analysis of the deposited data

Results flagged for a closer look

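None of the 10 follicle stem cell genes had a CTR papilloma far from the others by Dixon's test at the 95% level. Of 45 genes examined, those whose CTR values are given above among them, the test picked out 8, where chance alone picks about 1 group in 20. The groups of 3 TG papillomas are too small for it. *Nanog* was at 12.7 FPKM in CTR 3, with the next papilloma at 3.34 FPKM. *Lgr5* was at 0.252 FPKM in CTR 1, the next being at 0.0197 FPKM, and CTR 1 was also the CTR papilloma with the most *Krt15*. *Krt5* was at 942 FPKM in CTR 1, below the next lowest at 1630 FPKM. *Krt19* was at 1.60 FPKM in CTR 2, above 0.530 FPKM. *Dkk3* was at 5.32 FPKM in CTR 4, above 3.46 FPKM. *Fgfr2* was at 11.96 FPKM in CTR 4, above 8.73 FPKM. *Acta1* was at 0.409 FPKM in CTR 3, above 0.197 FPKM. *Cfd* was at 0.0484 FPKM in CTR 3 and listed at 0 in the other CTR papillomas.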

How the results depend on the processing

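The number of the 10 follicle genes with a higher TG mean was 8 and ranged from 5 (without TG 3) to 8 with 1 papilloma left out, and it was 4 relative to basal keratinocyte genes. With sample quality weights, the genes that passed an adjusted p of 0.05 (limma) numbered 49 higher and 36 lower, against 0 and 0, 1 gene of the further lists passed (*Ivl*), and the *Nanog* difference was 3.41 (adjusted p = 0.0320, against 0.400). With 1 papilloma left out, the adjusted counts ranged from 0 to 9 higher (9 without TG 3) and from 0 to 8 lower (8 without TG 3), the genes of the further lists from 0 to 1 (*Ivl*, without TG 3), and the *Nanog* difference from 3.25 to 3.93 (3.93 without CTR 3, adjusted p = 0.00364). Unadjusted counts, 598 higher and 241 lower (71.3% higher), were 961 and 358 with no filter, 515 and 418 with upper-quartile scaling (55.2% higher), 394 and 561 with quantile normalization (41.3%), 1161 and 1248 with quality weights (48.2%), 364 and 134 without CTR 3, 595 and 121 without TG 2 (83.1%), and 627 and 522 without TG 3 (54.6%). The cause of these shifts was not tested. With the replicate number as a replicate block, 0 genes passed the adjusted threshold in each direction, 505 were higher and 170 lower unadjusted, the *Nanog* difference was 3.34 (adjusted p = 0.146) and 8 of the 10 genes had a higher TG mean. Deviations of same-numbered papillomas from their group means correlated at -0.186, 0.0431 and -0.146. Papillomas with unlike numbers were at -0.216 to 0.312. These 3 values are too few to decide whether papillomas of the same number share more than the number, and CTR 4 has no partner. *Lhx2*, *Lgr6* and *Fgf18* rest on at most 20 reads in any papilloma, and depth limits them most.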
